A study of Mus musculus with 2 samples.

Results

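The C3 and Cd74 epithelial cells are cochlear cells that carried the epithelial adhesion gene Epcam together with immune and secretory genes. They were chosen by their counts: at least 1 UMI (a read tag that marks 1 captured RNA molecule) of Epcam and at least 1 UMI of at least 3 of 6 genes, Wfdc18, C3, Cd74, Clca3a2, Orm2 and H2-Ab1. Cells with at least 30 UMIs of Gal and at least 10 of Cck per 10000 UMIs were left out, which removed 2 cocktail cells and 0 vehicle cells. The rule gave 133 of the 2913 kept cells, 66 in the cocktail library and 67 in the vehicle library. They were 9.59% of the 688 cocktail cells with an Epcam UMI (95% Clopper-Pearson interval 7.5 to 12) and 8.83% of the 759 vehicle cells with one (6.91 to 11.1). Of all kept cells they were 4.97% (3.86 to 6.28) and 4.23% (3.29 to 5.34), and these intervals overlapped.

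Explants of the whole cochlea, taken from C57BL/6J mice at an age of 4 to 6 weeks, were the material, and single cells were read with the 10x 3′ kit. The cocktail group received VPA at 1.5 mM, LiCl at 8 mM, FSK at 20 µM and the small interfering RNAs siFIR and siMxi1 at 0.02 µM each for 4 days, and the vehicle group received sterile water with 0.1% DMSO over the same days. Both groups were then infected with ad.Atoh1 for 2 weeks, so that both overexpressed Atoh1, a transcription factor of hair cell formation, and no group without it was profiled. Each group is 1 library that pooled 5 cultures, and the cells are not traced to a culture. No spread between replicates could therefore be measured, no test was made, and every interval given covers counting error only. The labels state that the sensory epithelium was dissected, that the ligament was taken off and that Reissner's membrane was removed at the ends of the cochlea.

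The cocktail matrix held 1403 barcodes and 19625208 UMIs, and the vehicle matrix held 1688 barcodes and 23108868 UMIs. After filtering, 1329 and 1584 cells remained, with medians of 10391 and 12267 UMIs. The C3 and Cd74 epithelial cells were deeper, with medians of 20046.5 (range 1399 to 53869) and 23500 UMIs (3623 to 59773), against 14830 and 11908 UMIs in the other cells with Epcam. Levels are therefore given as UMIs summed over a group of cells per 1000000 UMIs (CPM), and 3 UMIs over the group correspond to 2.19 CPM in the cocktail cells and 1.86 CPM in the vehicle cells. The median share of mitochondrial UMIs was 1.73% and 2.03%. No barcode was shared between the libraries.

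Class II major histocompatibility (MHC) molecules present peptides from outside the cell to helper T cells and are the hallmark of professional antigen-presenting cells, but barrier epithelia can also make them when inflamed. Their subunits pair in the endoplasmic reticulum with the invariant chain, the product of Cd74, and are loaded with peptide by the DM proteins. C3 is the central protein of the complement cascade, and Orm2, Lcn2 and the Saa genes encode acute phase proteins that the liver and many epithelia release during infection or injury. In the cochlea, resident macrophages are the usual source of class II molecules, and therefore macrophage genes were examined in the same cells.

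The values of the 6 genes of the rule describe the choice and support nothing. Cd74 was found in 56 of 66 cocktail cells and 59 of 67 vehicle cells, C3 in 53 and 57, Orm2 in 46 and 48, and H2-Ab1, the class II beta chain, in 44 and 43. Wfdc18, a secreted whey acidic protein family member, was found in 40 and 28 cells, and Clca3a2, of the chloride channel accessory family, in 30 and 28. Both Cd74 and H2-Ab1 were found in 40 and 41 cells, and neither in 6 and 6. The pair of class II genes was thus shared by most of the cells, as many as had Wfdc18 in the cocktail library and more than had it in the vehicle library.

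Summed C3 stood at 513 CPM in the cocktail cells and 727 CPM in the vehicle cells, against 18 and 16.1 CPM in the other cells with Epcam. Cd74 stood at 243 and 385 CPM against 3.21 and 11.1 CPM, H2-Ab1 at 107 and 90.7 CPM against 4.62 and 5.26 CPM, and Clca3a2 at 118 and 98.1 CPM against 1.81 and 4.00 CPM. Orm2 stood at 530 and 560 CPM against 6.83 and 18.4 CPM, and 1 vehicle cell held 357 of its 902 UMIs. The highest sum was that of Wfdc18, at 2432 and 2574 CPM against 90.5 and 28.2 CPM. That sum came from few cells: the 5 highest held 79.6% of the cocktail UMIs and 82.4% of the vehicle UMIs, and 1 cell alone held 1358 of 3329 and 1220 of 4144. Epyc, which encodes the proteoglycan epiphycan and was not part of the rule, stood at 2491 and 1811 CPM against 280 and 241 CPM. Epcam itself stood at 1699 and 1614 CPM against 959 and 1030 CPM. C3 lies at chr17:57203970-57228136 (minus strand, GRCm38), H2-Ab1 at chr17:34257689-34269419 (plus), Wfdc18 at chr11:83709015-83711348 (plus), Orm2 at chr4:63362449-63365878 (plus), Clca3a2 at chr3:144796559-144819494 (minus) and Epyc at chr10:97644068-97682454 (plus).

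The plot of summed levels sets these genes beside Epcam, whose difference between the groups of cells was much smaller. The cells just outside and just inside the rule were compared as a description. Cells with Epcam and just 2 of the 6 genes numbered 28 and 46, and in them Cd74 stood at 30.1 and 97.1 CPM, H2-Aa at 11.7 and 12 CPM and Epyc at 647 and 999 CPM. Cells with exactly 3 genes numbered 26 and 27, with Cd74 at 98.1 and 137 CPM, H2-Aa at 32.7 and 14.6 CPM and Epyc at 835 and 767 CPM. All 6 genes were found in 10 cocktail and 4 vehicle cells. No kept cell without an Epcam UMI had 3 or more of the 6 genes, and 14 and 8 such cells had 2.

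To see each gene apart from its own place in the rule, cells with Epcam were also chosen by at least 3 of the other 5 genes. Cells chosen without Cd74 had a Cd74 UMI in 78.7% of 47 cocktail cells and 83.3% of 48 vehicle cells, against 6.08% and 8.44% of the remaining cells with Epcam. After thinning every cell to 2000 UMIs, these shares were 31.9% and 41.7% against 1.79% and 2.21%. The log2 ratio of summed Cd74 was 5.24 and 4.58. The same ratio was 4.65 and 4.45 for C3, 4.13 and 3.79 for H2-Ab1, 5.72 and 3.79 for Clca3a2, 4.65 and 3.50 for Orm2 and 4.56 and 5.39 for Wfdc18. Each of the 6 genes was thus more than 2-fold above the remaining cells with Epcam when its own counts were not used. The 6 genes were chosen with earlier results of these data known, so these ratios describe the choice and support nothing. Nor were the genes shared evenly. Of the C3 and Cd74 epithelial cells, 14 cocktail and 30 vehicle cells had no Epyc UMI. In these, Wfdc18 was found in 2 and 2 cells and Clca3a2 in 0 and 5.

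Most macrophage genes were at or near 0 in these cells. Ptprc, the leukocyte phosphatase CD45, the complement genes C1qa, C1qb and C1qc, and Tyrobp, Lyz2, Laptm5 and Adgre1 each had 0 UMIs in the 66 cocktail cells and 0 in the 67 vehicle cells, which allows a share of cells with a UMI of up to 4.55% and 4.48%. Fcer1g and Csf1r had 1 UMI each in each library. Cd68, a lysosomal gene that other cell types share, had 10 and 11 UMIs in 10 and 10 cells, while 10.8% of the other cells with Epcam had one in each library. Aif1, a macrophage and microglial calcium-binding protein, went the other way, with 6 and 5 UMIs in 3 and 3 cells, 4.38 and 3.11 CPM against 0.301 and 0 CPM in the other cells with Epcam. Over the whole list of 14 macrophage genes, the sum was 15.3 CPM in the cocktail cells and 13.0 CPM in the vehicle cells, against 23.3 and 22.6 CPM in the other cells with Epcam, and 8 of the 14 were at 0 in both libraries. Of the dendritic cell list, 5 of 6 genes were at 0 in both libraries (Flt3, Itgax, Cd209a, Clec9a and Xcr1). The sums, all from Zbtb46, were 6.57 and 19.9 CPM, against list sums of 21.3 and 17.3 CPM in the other cells with Epcam. All 4 neutrophil genes were at 0 in both, and of the 8 lymphocyte genes 6 were at 0 in both.

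Kept cells without Epcam and with at least 3 of 7 macrophage genes numbered 5 and 4. In them C1qa had 409 and 2 UMIs, Tyrobp 710 and 147, Lyz2 864 and 311 and Ptprc 34 and 26, so the vehicle cells of this kind had little C1qa. The same cells had 2 and 0 UMIs of Cd74, 0 and 1 of H2-Ab1 and 0 and 0 of H2-Aa. Per UMI of C1qa there was 0.00489 UMI of Cd74 in the cocktail macrophage-like cells, whereas the C3 and Cd74 epithelial cells had at least 111 (cocktail) and 206 (vehicle) UMIs of Cd74 per UMI of C1qa, taking 3 UMIs as the floor for C1qa. A UMI of any of 6 immune genes (Ptprc, C1qa, C1qb, C1qc, Tyrobp and Fcer1g) was found in 1 of 66 and 1 of 67 cells, 1.52% and 1.49%, against 2.41% and 1.30% of the other cells with Epcam. Scrublet called 0 of 1329 and 2 of 1584 cells as doublets, none of them a C3 and Cd74 epithelial cell. A caller that marks so few cells gives no information on doublets here, and doublets of 2 epithelial cells, which would also be deep, were not tested.

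**Figure D1:**
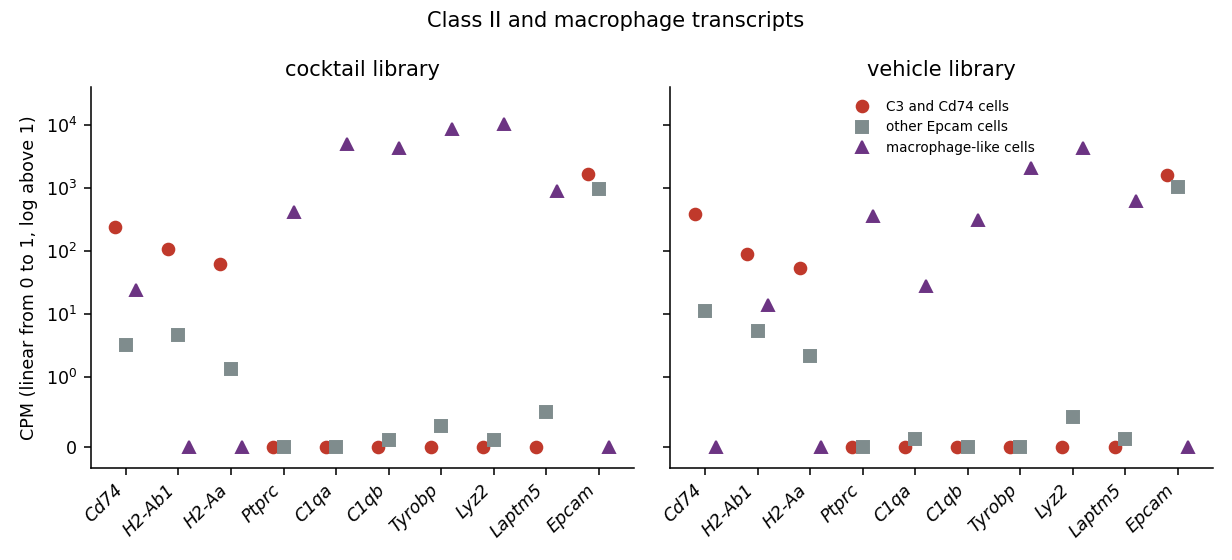
Summed level in CPM (linear from 0 to 1, then log) of class II genes, macrophage genes and Epcam in the C3 and Cd74 epithelial cells, the other cells with Epcam and the macrophage-like cells without Epcam, for each library. In the C3 and Cd74 epithelial cells the class II genes stand well above 0 while Ptprc, C1qa, C1qb, Tyrobp, Lyz2 and Laptm5 lie at 0, and in the macrophage-like cells the order is the opposite.

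In the plot of class II and macrophage genes, the cells high in the one set were not those high in the other. Free RNA was read from cells that should lack Cd74. A Cd74 UMI was found in 2.50% and 0.970% of the kept cells without Epcam, whose median depth was 5580 and 11534 UMIs, in 1.30% and 0.847% of the cells with high Gal and Cck, and in 2.94% and 3.13% of the cells with Epcam and Ceacam16, a gene of the tectorial membrane. A group of 4 cocktail and 22 vehicle cells with Tecta and Vmo1 had a Cd74 UMI in 0% and 31.8%, so Cd74 was also present outside the rule in the vehicle library.

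Class II genes other than those of the rule were also high where they could be compared. A gene was called higher or lower where its summed level differed by more than 2-fold the same way in both libraries, with counting intervals that left out a log2 ratio of 0, among genes with at least 20 UMIs in each library. Of 10 class II genes, 6 could be compared and all 6 were called higher than in the other cells with Epcam, Cd74 and H2-Ab1 of the rule among them, beside 2.73% of the 13541 genes compared. The cells were chosen by genes of this contrast, so these counts describe them and support nothing. The list's median log2 ratio was 4.79 and 4.16, and the median of all genes was -0.14 and -0.15. H2-Aa, the class II alpha chain that pairs with H2-Ab1, stood at 61.4 and 53.4 CPM against 1.31 and 2.10 CPM, a log2 ratio of 5.56 (4.70 to 6.52) and 4.67 (3.95 to 5.45). It was found in 29 and 31 cells, against 0.156% and 0.121% of kept cells without Epcam. H2-Eb1, the second class II beta chain, stood at 31.4 and 34.2 CPM against 0.903 and 1.79 CPM, a log2 ratio of 5.12 (4.06 to 6.34) and 4.26 (3.45 to 5.13). The peptide loaders were expressed more widely: H2-DMa stood at 65.7 and 73.3 CPM against 11.3 and 13.4 CPM, and H2-DMb1 at 51.9 and 52.2 CPM against 21.6 and 19.6 CPM. Ciita, the class II transactivator, had 6 and 0 UMIs and could not be compared, and H2-DMb2, H2-Oa and H2-Ob, whose usual site is the lymphoid cell, had none in either library.

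Class II promoters are known for a Y box, an inverted CCAAT motif, and its letters were looked for in the 100 bases before the RefSeq start (GRCm38.p6) of the class II genes that moved together. Of 6 genes searched, 4 had a promoter entry, and Cd74 and H2-Ab1 did not. The letters ATTGG on either strand were present in 3 of the 4 and not in H2-DMa. The 3 are H2-Aa (chr17:34287824-34287923, minus strand), H2-Eb1 (chr17:34305767-34305866, plus) and H2-DMb1 (chr17:34153091-34153190, plus), shown 5′ to 3′ with ATTGG, or CCAAT where it is read from the opposite strand, in capitals.
H2-Aa: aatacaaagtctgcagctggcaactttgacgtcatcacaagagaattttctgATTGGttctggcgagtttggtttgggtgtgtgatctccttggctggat
H2-Eb1: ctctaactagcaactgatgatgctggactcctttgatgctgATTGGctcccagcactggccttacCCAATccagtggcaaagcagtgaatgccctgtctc
H2-DMb1: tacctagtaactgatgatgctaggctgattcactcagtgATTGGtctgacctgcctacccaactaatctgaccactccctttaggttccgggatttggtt
The first capital lies 48 bases before the start in H2-Aa, 59 in H2-Eb1 and 61 in H2-DMb1. ATTGG is common, present in 18.9% of 32851 promoters of this length, and the longer CTGATTGG, present in 2.51% of them, was found in H2-Aa and H2-Eb1. A match is a description of the letters and not a site.

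Genes of class I presentation, which most nucleated cells carry, were higher by less. Of 12 compared, 5 were called higher and 0 lower, with a median log2 ratio of 0.95 and 1.09. Of all genes compared, 2.73% were called higher and 7.86% lower. Psmb8, an immunoproteasome subunit, stood at 106 and 139 CPM against 39.7 and 37.0 CPM, a log2 ratio of 1.42 (1.13 to 1.70) and 1.91 (1.66 to 2.16). H2-K1, a classical class I heavy chain, stood at 1172 and 1290 CPM against 513 and 446 CPM, and B2m, the light chain of all class I molecules, at 1145 and 1272 CPM against 566 and 530 CPM. H2-T23 (282 and 180 CPM against 126 and 82.4 CPM) and the immunoproteasome gene Psmb10 (70.1 and 74.5 CPM against 27.8 and 32.8 CPM) were the other called genes. H2-K1 and B2m thus differed by less than the class II chains did. Class I genes are near-identical over parts of their length, and reads from the 3′ end may have been divided among them.

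The complement list held 3 called genes of 11 compared, all higher, beside 2.73% called higher of all genes compared. Its median log2 ratio was 0.44 and 0.28, against -0.14 and -0.15 for all genes. The called genes were C3, C1ra and C2. C3 belongs to the rule, so its call describes the choice and supports nothing. C1ra, a protease of the C1 complex, stood at 35.1 and 52.8 CPM against 2.51 and 6.94 CPM, a log2 ratio of 3.80 (3.08 to 4.56) and 2.93 (2.45 to 3.41). C2, the protease that joins the C3 convertase of the classical pathway, stood at 95.7 and 71.4 CPM against 23.3 and 27.0 CPM, a log2 ratio of 2.04 and 1.40. Cfb, its counterpart in the alternative pathway, had only 7 and 6 UMIs and was not compared.

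Of 11 acute phase and antimicrobial genes compared, 8 were called higher and 0 lower, with a median log2 ratio of 3.83 and 2.20. Of all genes compared, 2.73% were called higher and 7.86% lower. Lcn2, an iron-scavenging lipocalin at chr2:32384633-32388252 (minus strand), was the most abundant of them. It stood at 30007 and 44737 CPM against 5526 and 9752 CPM, a log2 ratio of 2.44 (2.42 to 2.46) and 2.20 (2.18 to 2.21), and made up 3.00% and 4.47% of the UMIs of these cells. Most of this difference lay in the cells without an Epyc UMI, where Lcn2 stood at 111652 and 81271 CPM. In the cells with an Epyc UMI it stood at 10155 and 12307 CPM. Slpi, a secreted protease inhibitor, stood at 202 and 352 CPM against 15.2 and 22.6 CPM, a log2 ratio of 3.73 and 3.96, and 1 vehicle cell held 204 of its 566 UMIs. Orm1, the near-identical neighbour of Orm2, stood at 24.8 and 15.5 CPM, and Lbp, which hands bacterial lipopolysaccharide to CD14, at 19.7 and 13.0 CPM against 3.61 and 4.00 CPM. Wfdc18, Orm2, Saa1 and Saa2 were the remaining called genes. Wfdc18 and Orm2 belong to the rule, so their calls describe the choice and support nothing. Reads of Orm1 and Orm2 may have been divided between them. Clca3a1, the neighbour and near copy of Clca3a2, stood at 27.8 and 31.1 CPM against 0.402 and 1.26 CPM, with the same reserve. It and Clca3a2 were the called genes among 4 compared in the chloride channel accessory and mucosal list of 12 genes. Clca3a2 belongs to the rule, so its call describes the choice and supports nothing.

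Several immune signalling genes were also called higher. Of 10 chemokines and cytokines compared, 4 were called higher and 1 lower, beside 2.73% and 7.86% of all genes compared. Cx3cl1, the membrane-bound ligand of the microglial and macrophage receptor CX3CR1, stood at 43.8 and 33.5 CPM against 5.02 and 7.04 CPM, a log2 ratio of 3.13 (2.56 to 3.70) and 2.25 (1.71 to 2.79). Cxcl16 stood at 104 and 90.7 CPM against 17.8 and 28.4 CPM, and Csf1, the macrophage growth factor, at 24.1 and 23 CPM against 5.62 and 6.73 CPM. Tnfsf10, which encodes the death ligand TRAIL, was the fourth, at 8.76 and 6.21 CPM. Ccl2, the monocyte attractant, was the one called lower, at 2.19 and 1.86 CPM against 11.9 and 9.25 CPM. Ccl5 went opposite ways, at 10.2 CPM against 33.7 CPM in the cocktail library and 22.4 CPM against 0.84 CPM in the vehicle library.

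Interferon-induced genes were mostly uncalled: of 19 compared, 3 were higher (Gbp3, Gbp2 and Irf8) and 0 lower, with a median of 0.37 and 0.63. For this list and the next, the shares of all genes compared were 2.73% higher and 7.86% lower. Gbp3, a guanylate-binding GTPase, stood at 58.4 and 42.2 CPM against 16.1 and 11.4 CPM, a log2 ratio of 1.86 and 1.90. Of 12 genes of the NF-kB response, 4 were called higher and 0 lower. Cd44, the hyaluronan receptor, stood at 197 and 221 CPM against 24.0 and 41.4 CPM, a log2 ratio of 3.04 (2.78 to 3.30) and 2.42 (2.21 to 2.63). Nfkbia, the inhibitor that NF-kB induces, stood at 375 and 388 CPM against 147 and 138 CPM, and the adhesion gene Icam1 at 19.7 and 38.5 CPM against 4.72 and 10.7 CPM. Tnfaip2 was the other, at 19.7 and 29.8 CPM against 5.52 and 12.3 CPM.

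Of 14 immune receptors and their signalling genes, 5 were called higher and 0 lower, beside 2.73% and 7.86% of all genes compared. Cd14, the lipopolysaccharide co-receptor, stood at 42.4 and 14.9 CPM against 0.602 and 1.37 CPM, and 1 cocktail cell held 22 of its 58 UMIs. Osmr, the oncostatin M receptor, stood at 38.7 and 53.4 CPM against 13.1 and 14.8 CPM, Ifngr2, a chain of the interferon gamma receptor, at 62.1 and 70.8 CPM against 30.3 and 28.0 CPM, and Tlr3, a sensor of double-stranded RNA, at 44.6 and 37.3 CPM against 17.5 and 18 CPM. Tlr2, a sensor of bacterial lipoproteins, stood at 17.5 and 8.08 CPM against 2.11 and 2.00 CPM. Set against kept cells without Epcam, Csf1 (log2 ratio -2.15 and -1.40), Icam1 (-2.27 and -0.51) and Tnfaip2 (-1.15 and -0.62) were below and not above, so these 3 were above other epithelial cells and below the rest.

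The epithelial label was checked against 16 epithelial markers. All 16 were detected in both libraries, and their summed level was 6276 and 6013 CPM against 3366 and 3742 CPM in the other cells with Epcam. Epcam itself is 1 of the 16 and was required of both groups of cells, so its detection was fixed by the choice. It made up 1699 and 1614 CPM of the sum, against 959 and 1030 CPM. In the list of 20 junction and keratin genes, 3 were called higher and 2 lower, with a median of 0.59 and 0.55. The shares of all genes compared were 2.73% higher and 7.86% lower. Krt18 stood at 1217 and 1060 CPM against 284 and 437 CPM, and Krt19 at 99.3 and 99.4 CPM against 9.84 and 31.8 CPM. Called lower were Krt7 (11.7 and 31.7 CPM against 66.3 and 97.7 CPM) and Krt23 (1.46 and 9.94 CPM against 53.9 and 59.5 CPM). Simple-epithelium keratins were therefore called in both directions. Of 14 epithelial transcription factors compared, Elf3 and Gata3 were called higher. Elf3, a factor of barrier epithelia, stood at 66.5 and 69.6 CPM against 14.1 and 21.9 CPM, and Gata3, needed for the otic epithelium, at 159 and 130 CPM against 55.0 and 64.2 CPM. Of the list for middle ear and airway epithelium, 5 of 10 genes were at 0 in both libraries (the basal cell genes Krt5 and Trp63, and Muc5b, Scgb1a1 and Sec14l3), and the sums were 6.57 and 12.4 CPM.

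Cochlear genes were present as well. Of 15 genes of the cochlear extracellular matrix, 6 were called higher and 1 lower, beside 2.73% and 7.86% of all genes compared. Besides Epyc these were Chil1, a secreted chitinase-like protein (706 and 1077 CPM against 33.6 and 114 CPM), Vmo1 (165 and 938 CPM against 4.02 and 173 CPM), Tecta, which encodes the tectorial membrane protein alpha-tectorin (108 and 214 CPM against 31.2 and 69.5 CPM), Col9a1 (52.6 and 42.9 CPM against 4.32 and 7.89 CPM) and Col11a1. Ceacam16, a marker of interdental cells, was called lower, at 3.65 and 1.86 CPM against 216 and 104 CPM. Among 15 ion transport and gap junction genes, 4 were called higher and 2 lower. Gjb2, the connexin of the cochlear gap junction network, stood at 340 and 206 CPM against 82.3 and 76.0 CPM, and the water channel Aqp4 at 25.6 and 42.2 CPM against 1.51 and 4.52 CPM. Car12 and Scnn1b were the others, and Slc26a4, the anion exchanger pendrin, was called lower with its relative Slc26a7, at 26.3 and 29.8 CPM against 83.1 and 61.8 CPM. Lum, which encodes lumican and counts among fibroblast markers, stood at 711 and 465 CPM against 82.1 and 59.5 CPM. Of the list of 6 fibroblast genes, Lum was called higher and Col3a1 lower.

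**Figure D2:**
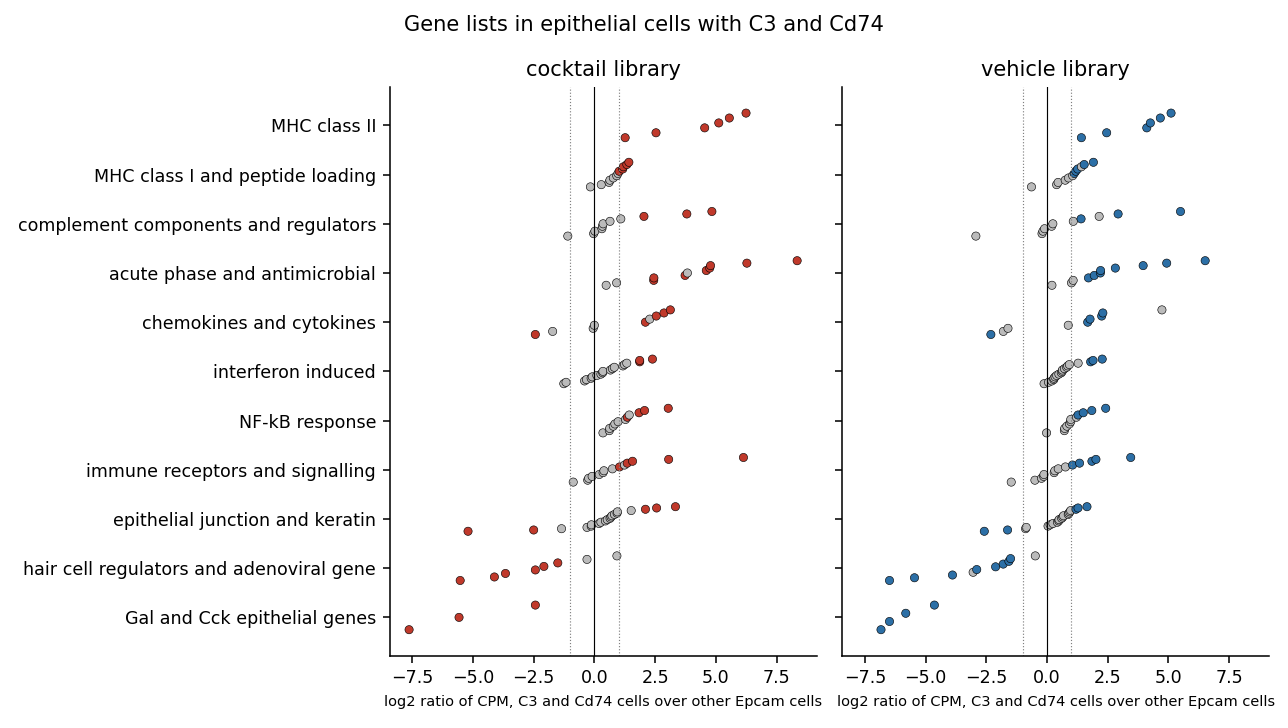
Log2 ratio of summed level in the C3 and Cd74 epithelial cells over the other cells with Epcam for each gene of 11 lists, both libraries, with called genes coloured and others grey and dotted lines at a 2-fold difference. The 6 class II genes lie to the right of the 2-fold line in both libraries, while most interferon and complement genes lie between the lines.

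Beside the lists in that plot, hair cell genes and Gal and Cck were low. In all, 369 genes were called higher and 1064 lower (7.86%) of 13541. Of 10 hair cell regulators and hair cell genes, 8 were called lower, with a median log2 ratio of -3.0 and -2.47. Atoh1 had 8 UMIs in the 66 cocktail cells and 2 UMIs in the 67 vehicle cells, 5.84 and 1.24 CPM against 74.1 and 54.6 CPM in the other cells with Epcam, a log2 ratio of -3.66 (-4.88 to -2.68) and -5.46 (-8.51 to -3.60). Counts of the 3′ end do not separate Atoh1 of the virus from that of the cell. Hes6 stood at 91.3 and 60.3 CPM against 386 and 261 CPM. The neuropeptide genes Gal (43.8 and 55.9 CPM against 8700 and 6388 CPM) and Cck (37.3 and 25.5 CPM against 1777 and 1435 CPM) were used to leave cells out. That removed only 2 cocktail and 0 vehicle cells, while the other cells with Epcam include those high in both genes. Outside this gate, cells with Epcam and 0 of the 6 genes had Gal at 4609 and 3923 CPM. The values are given as a description. Compared only with cells outside the Gal and Cck gate, 245 genes were called higher and 807 lower. Of 7 cell cycle genes compared 0 were called, and of 14 wound, stress and senescence genes the cyclin gene Ccnd1 and the cell cycle inhibitor gene Cdkn2b were called higher and Vim lower.

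By the rank over all genes, the genes furthest above the other cells with Epcam were, besides those already given, Ly6a and Msln. Ly6a, a membrane protein that interferon induces in many mouse cells, stood at 461 and 482 CPM against 14.6 and 42.1 CPM, a log2 ratio of 4.98 (4.72 to 5.26) and 3.52 (3.34 to 3.70). A single cocktail cell held 238 of its 631 UMIs. Msln, mesothelin, was found in only 3 and 8 cells and 1 cell held 16 of 25 and 27 of 41 UMIs. The furthest below were Gal, Cck, Gamt, Ckb, Rtl8b, Tex14, Asap3 and Rtl8a. Ckb, brain-type creatine kinase, stood at 179 and 107 CPM against 1188 and 949 CPM, and Gamt, of creatine synthesis, at 22.6 and 19.3 CPM against 225 and 186 CPM.

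The cells did not form a single kind. A split by Epyc was chosen after the values had been seen, because Epyc was found in 52 of 66 cocktail cells, 78.8% (67.0 to 87.9), and in 37 of 67 vehicle cells, 55.2% (42.6 to 67.4). In the other cells with Epcam it was found in 37.6% and 22.1%, so the higher cocktail share was not particular to these cells. The split rests on 1 UMI, some cocktail cells had just 1 Epyc UMI, and free RNA was not subtracted. Cells without Epyc spent a large part of their RNA on Lcn2: its median share of a cell's UMIs was 10.9% in the cocktail library and 7.32% in the vehicle library, against 0.691% and 0.274% in cells with Epyc. A UMI of Tecta, Otx2 or Gpx3 was found in 11 of 14 and 28 of 30 cells without Epyc, and in 12 of 52 and 6 of 37 cells with it. A UMI of Gata3, Gjb2 or Lum was found in 51 of 52 and 37 of 37 cells with Epyc, and in 3 of 14 and 2 of 30 cells without it.

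**Figure D3:**
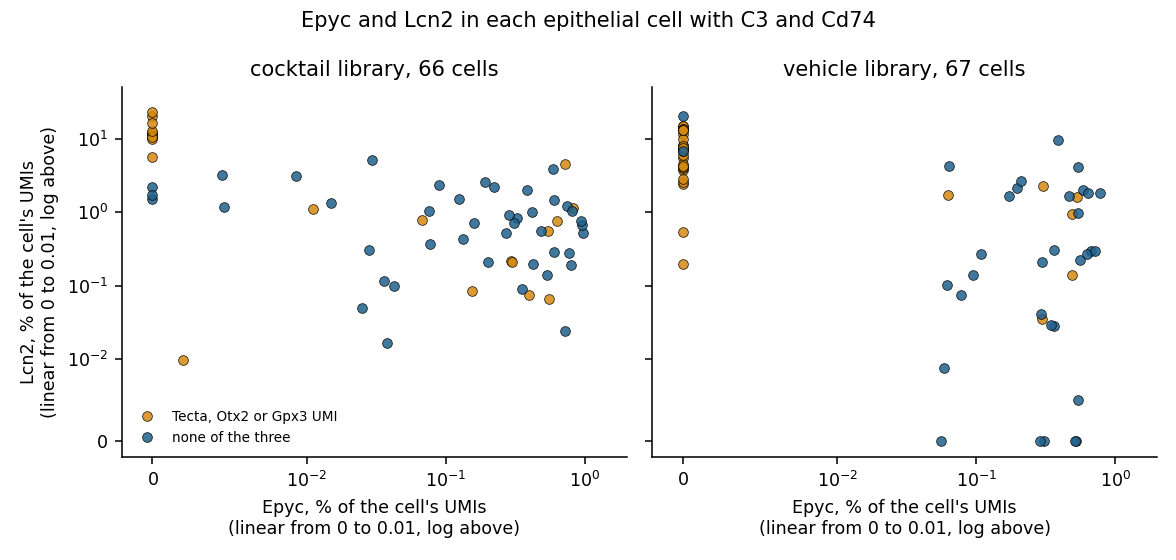
Share of each cell's UMIs taken by Epyc (x axis, percent) and Lcn2 (y axis, percent) in the 66 cocktail and 67 vehicle cells, orange where a UMI of Tecta, Otx2 or Gpx3 was found and blue where none was. Cells without Epyc reach high Lcn2 shares and are mostly orange, while cells with Epyc lie low in Lcn2 and are mostly blue.

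In the plot of Epyc against Lcn2 the cells lie along the axes more than between them: an Lcn2 share of at least 4% was seen in 2 of 52 and 3 of 37 cells with Epyc and in 11 of 14 and 23 of 30 cells without it. Of 7530 genes compared between the kinds, 377 (5.01%) were called higher with Epyc in both libraries and 213 (2.83%) higher without it. With Epyc, Gata3 stood at 198 and 244 CPM against 0 and 2.64 CPM without, Lum at 881 and 878 CPM against 14.9 and 0 CPM, Cd44 at 244 and 405 CPM against 3.73 and 14.5 CPM, and Gjb2 at 417 and 383 CPM against 26.1 and 6.61 CPM. Clca3a2 (147 and 163 CPM against 0 and 25.1 CPM) and Ly6a (573 and 845 CPM against 0 and 72.7 CPM) were likewise on this side. The elevation of Cd44, Gata3 and Gjb2 in the pooled cells therefore came from the cells with Epyc, and in the cells without it Cd44 and Gjb2 lay below the other cells with Epcam (log2 ratio -2.68 and -1.51 for Cd44, -1.65 and -3.52 for Gjb2).

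Without Epyc the cochlear matrix genes changed places. Tecta stood at 519 and 450 CPM against 8.17 and 4.69 CPM with Epyc, Otog, another tectorial membrane gene, at 280 and 299.9 CPM against 25.4 and 2.35 CPM, and Chil1 at 2719 and 2059 CPM against 217 and 205 CPM. Otx2, a homeobox factor, stood at 101 and 85.9 CPM against 0.908 and 0 CPM, and Gpx3, a secreted peroxidase, at 1311 and 518 CPM against 19.1 and 4.69 CPM. The alarmin Il33 stood at 116 and 83.2 CPM against 9.08 and 5.86 CPM. In the vehicle library, Vmo1 in the cells with Epyc lay below the other cells with Epcam (log2 ratio -1.12, -1.49 to -0.77), and the ratios of Car12 (-0.38, -1.06 to 0.23) and Scnn1b (-0.71, -2.36 to 0.57) had intervals that held 0.

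Of 6 class II genes compared, 0 were called either way in both libraries. The list's median log2 ratio of cells with over cells without Epyc was 0.10 in the cocktail library and 1.03 in the vehicle library, where H2-Aa (1.65, 0.89 to 2.46), H2-Ab1 (1.60, 1.03 to 2.21) and Cd74 (1.21, 0.95 to 1.47) were each more than 2-fold higher with Epyc. H2-Ab1 stood at 112 CPM with Epyc and 89.6 CPM without it in the cocktail cells, and at 133 and 43.6 CPM in the vehicle cells. Cd74 was lower with Epyc in the cocktail cells (219 against 344 CPM) and higher with Epyc in the vehicle cells (524 against 227 CPM). C3 stood at 564 against 306 CPM and 1048 against 365 CPM. Of 15 interferon-induced genes compared, 5 were called higher with Epyc and 0 without it, among them Isg15 (344 and 235 CPM against 127 and 58.1 CPM) and Ifit1 (242 and 232 CPM against 56.0 and 74.0 CPM). Of all genes compared between the kinds, 5.01% were called higher with Epyc and 2.83% higher without it.

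Clustering of all kept cells, which used these genes and is thus no separate evidence, gave 26 clusters and placed the kinds apart only in part. The cluster led by Wfdc18, Epyc, C3, Chil1 and Orm2 held 75 cells. Of them 64 were C3 and Cd74 epithelial cells, 57 with Epyc and 7 without it. A cluster of 86 cells led by Tecta, Gpx3, Fam19a1, Vmo1 and Ttr held 24, all without Epyc. A cluster of 169 cells led by Ceacam16 held 15, all with Epyc, and a cluster of 47 cycling cells held 8, 4 with Epyc and 4 without it. Single C3 and Cd74 epithelial cells also fell in clusters led by Saa3, Cxcl12, Spp1 and Dcn, by Ibsp, Ifitm5 and Alpl, which are osteoblast genes, and by the hair cell genes Ptprq and Cabp2. The rule thus gathered cells of several clusters.

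The last comparison was that of cocktail with vehicle within the C3 and Cd74 epithelial cells, with 1 library on each side. Of 10301 genes compared, 259 (2.51%) were called more than 2-fold higher in the cocktail cells and 364 (3.53%) lower. In the other cells with Epcam, 383 (2.5%) of 15343 were called higher and 951 (6.2%) lower. Without the highest cell of each gene 169 were called higher and 266 lower. In 22.4% of the genes called higher and 17.0% of those called lower, 1 cell held at least 50% of the UMIs. The immune genes of the rule were not called: the log2 ratio of cocktail over vehicle was -0.66 (-0.86 to -0.47) for Cd74, 0.24 (-0.10 to 0.58) for H2-Ab1 and -0.50 (-0.64 to -0.37) for C3. With cells with and without Epyc pooled, 0 of 6 class II genes compared were called, with a median of -0.06. Of 18 interferon-induced genes 1 was called, Rsad2, lower. Of 12 immune receptor and signalling genes 3 were called higher, Tlr2 (24 and 13 UMIs), Tlr4 (31 and 18) and Cd14 (58 and 24), and of 8 chemokines and cytokines Cxcl1 was called higher (20 and 2 UMIs) and Ccl5 lower (14 and 36). Of 7 cell cycle genes, 4 were called lower, Mki67, Top2a, Ccnb1 and Cdk1, and few cells held them. Ccnb1 was found in 2 cocktail and 4 vehicle cells, 1 of which had 17 of the 32 vehicle UMIs, and 5 vehicle cells held 95.5% of the Cdk1 UMIs. In cells without Epyc, Top2a had a log2 ratio of -0.01 (-0.84 to 0.77) and Ccnb1 of 1.35 (-0.13 to 2.80).

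The mix of cells with and without Epyc differed between the libraries, as given above, and values within the kinds are therefore given beside the pooled ones for the genes described most fully. Lgals1, galectin-1, was called higher in both: it stood at 877 CPM in the cocktail cells and 203 CPM in the vehicle cells, a log2 ratio of 2.11 (1.94 to 2.30), with 1034 against 346 CPM in cells with Epyc and 232 against 41.0 CPM in cells without it. Its ratio in the other cells with Epcam was -0.05. Pde7b, a cyclic AMP phosphodiesterase, stood at 124 against 26.1 CPM, a log2 ratio of 2.25 (1.76 to 2.77), and at 153 against 43.4 CPM in cells with Epyc (1.81, 1.29 to 2.37). Without Epyc it had only 2 and 5 UMIs, a log2 ratio of 0.18 (-3.22 to 2.79). Its ratio in the other cells with Epcam was -0.04. Cd74 moved opposite ways within the kinds, at 219 against 524 CPM with Epyc (log2 ratio -1.26, -1.49 to -1.03) and 344 against 227 CPM without it (0.60). For H2-Ab1 the log2 ratio was -0.25 (-0.63 to 0.13) with Epyc and 1.04 (0.22 to 1.84) without it. For H2-Aa it was -0.33 (-0.83 to 0.18) and 1.16 (0.08 to 2.21). Orm2, whose pooled ratio was -0.08, had 1.42 (1.18 to 1.68) with Epyc and -1.08 (-1.37 to -0.80) without it.

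The serum amyloid genes were highest in cocktail cells without Epyc. Saa3 stood at 150 CPM in the cocktail cells and 9.32 CPM in the vehicle cells, Saa2 at 131 and 15.5 CPM and Saa1 at 56.2 and 9.32 CPM, log2 ratios of 4.01 (3.25 to 4.87), 3.07 (2.46 to 3.74) and 2.59 (1.78 to 3.50). They came from few cells. Saa3 was found in 4 and 4 cells and 1 cocktail cell held 127 of 205 UMIs, and Saa2 was found in 9 and 5 cells and 1 held 124 of 179. Without Epyc, Saa2 stood at 665 against 33.0 CPM, in 8 of 14 and 5 of 30 cells, Saa1 at 288 against 19.8 CPM and Saa3 at 736 against 13.2 CPM. With Epyc, Saa1 had 0 and 0 UMIs, Saa2 1 and 0, and Saa3 8 and 5. In the other cells with Epcam, Saa2 was called lower in the cocktail library (-2.46, -4.46 to -0.89), while Saa1 (-0.07) and Saa3 (0.38) were not called. Saa1 and Saa2 are near-identical and their reads may have been divided.

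Vmo1, Ttr and Hmx2 were lower in the cocktail cells, and in the vehicle library all 3 were mostly found in cells without Epyc. In the cocktail library Vmo1 was found in 13 cells with Epyc (127 UMIs) and 7 cells without it (99 UMIs). Vmo1 stood at 165 against 938 CPM, a log2 ratio of -2.51 (-2.71 to -2.30), at 370 against 1905 CPM without Epyc and at 115 against 79.7 CPM with it. Ttr, the thyroxine carrier transthyretin, stood at 13.9 against 169 CPM, and 1 vehicle cell held 117 of 272 UMIs, all of them in cells without Epyc. Hmx2, a homeobox factor of the inner ear, had 1 UMI in the cocktail cells and 51 in the vehicle cells, a log2 ratio of -5.44 (-10.77 to -2.90). In cells without Epyc it had 0 and 50 UMIs, the latter in 14 of 30 cells. All 3 were called lower in the other cocktail cells with Epcam too, with log2 ratios of -5.43 for Vmo1, -5.52 for Ttr and -1.96 (-2.73 to -1.25) for Hmx2. Gdf15, a stress-induced cytokine, was lower in both kinds, with 1 against 34 UMIs in cells with Epyc (-5.46, -10.80 to -2.88) and 8 against 54 in cells without it (-1.26, -2.54 to -0.18). It came from few cells: 1 of 52 and 3 of 37 with Epyc, and 2 of 14 and 14 of 30 without it. A single vehicle cell held 32 of the 88 vehicle UMIs. The other genes named by rank were Ctgf and Fstl1 (higher), and Kcnb2 (lower), and Pvalb, Hist1h1b, Fam19a1 and Cenpf, for which 1 cell held at least 50% of the UMIs in the higher library.

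**Figure D4:**
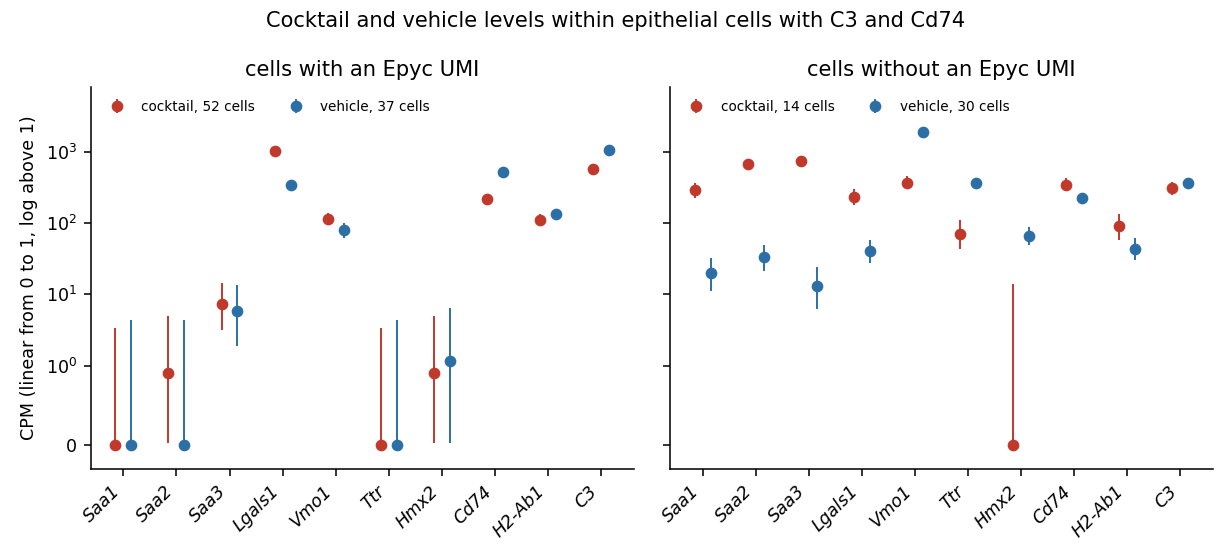
Summed level in CPM of 10 genes in cocktail (red) and vehicle (blue) cells, drawn apart for cells with and without an Epyc UMI, with 95% Poisson intervals for counting error. The Saa genes are highest in cocktail cells without Epyc, Lgals1 is higher in cocktail cells of both kinds, and Vmo1, Ttr and Hmx2 are higher in vehicle cells without Epyc.

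The plot by library and kind shows these values together with Cd74, H2-Ab1 and C3, which were not called with the kinds pooled. With and without Epyc, the log2 ratio was -1.26 and 0.60 for Cd74, -0.25 and 1.04 for H2-Ab1 and -0.89 and -0.25 for C3. As each library pools cultures and is the single one of its group, a difference between the treatments and a difference between these 2 libraries cannot be told apart.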

How the data were processed

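The authors deposited 1 matrix of raw UMI counts per gene and barcode for each of the 2 libraries. It was made with Cell Ranger 5.0.0 per the file headers, and the submitters' processing notes also name STAR, Seurat 3.2.2, GRCm38 and mm10 without their role. Of 31053 gene identifiers, 30934 matched GENCODE M21, from which positions were taken.

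Barcodes under 500 UMIs, under 300 genes or over 20% mitochondrial UMIs were removed (74 cocktail, 104 vehicle). The counts of a group of cells were summed and scaled to 1000000 (CPM), and log2 ratios carry exact conditional 95% counting intervals. Genes with at least 20 UMIs were compared. UMIs limit the effect of PCR copies, but the intervals cover counting error only. With 1 library per group there were no replicates and no test. Free RNA was not subtracted, and no doublets were removed. The 18 gene lists, 19 marker lists and the cells themselves were chosen with earlier results of these data known, and the split by Epyc after its values were seen.

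Named genes were the genes of the rule with Epcam, Epyc, Ptprc, C1qa, Gal, Cck and Atoh1, up to 4 higher and 2 lower genes of each list, the 12 higher and 8 lower over all genes, and the 8 higher and 8 lower between libraries, each with at least 50 UMIs and ranked by the interval bound nearest 0, the last without each gene's highest cell. Sex-linked, haemoglobin, ribosomal and mitochondrial genes and unnamed gene models were left out of the ranks. Other genes named to complete a count, or for the Epyc split, were chosen after their values were seen. Tested on simulated data for these cells over the other cells with Epcam (13541 genes, 50 per size), the rule called 92% of genes made 1.5 log2 units higher, 60% made 1.5 lower, 100% made 3 higher and 88% made 3 lower, and left 100% of unchanged genes uncalled. The simulated sums held counting error only, with no spread between cells or libraries. They therefore do not show how often such spread leads to a call. Clustering used scanpy 1.11.5 (2000 variable genes, 30 principal components, 15 neighbours, Leiden resolution 1.0). Python 3.11.15, numpy 2.4.6, scipy 1.17.1, pandas 2.3.3 and matplotlib 3.10.9 were used. Alternatives varied the rule, the filters, the depth, the scaling, the cells compared with and the gene's highest cell. A gene that the rule gave is not reported here, and the counts include it.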

Additional observations from a re-analysis of the deposited data

Results flagged for a closer look

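Fstl1 and Cenpf lay on opposite sides of the other cells with Epcam in the 2 libraries. Fstl1, which encodes a secreted follistatin-like glycoprotein, stood above them in the cocktail cells, with a log2 ratio of 1.07, and below them in the vehicle cells, with -1.36. Cenpf, a kinetochore gene of dividing cells, stood below them in the cocktail cells, with -1.25, and above them in the vehicle cells, with 1.74, where 1 cell held 106 of its 186 UMIs. The counting intervals left out 0 in each case, but with 1 library per group the difference between the libraries was not tested.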

How the results depend on the processing

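Shares of kept cells depended on the rule. With at least 4 of the 6 genes they were 3.01% and 2.53%, with C3 left out 3.61% and 2.97%, with Cd74 left out 3.54% and 3.03%, with Orm2 left out 3.76% and 3.03%, and with every cell thinned to 2000 UMIs 1.87% and 1.22%. Thinning took the cocktail cells with an immune UMI to 0%.

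Genes called higher were 245 outside the Gal and Cck gate, and against kept cells without Epcam 988 were higher and 1746 lower. Between libraries, 169 were called higher without each gene's highest cell. With at least 50 UMIs per gene 115 were higher and 144 lower. The split by Epyc was added after seeing the data: 235 were lower with Epyc and 109 higher without it.

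Directions turned as follows. Against cells without Epcam, the cocktail log2 ratios were -0.53 for Psmb8, -0.32 for C1ra, -2.15 for Csf1, -2.27 for Icam1, -1.15 for Tnfaip2, -0.96 for Osmr, 1.09 for Krt7 and 4.75 for Slc26a4, and the vehicle ratios -1.40 for Csf1, -0.51 for Icam1, -0.62 for Tnfaip2, 2.37 for Krt7 and 4.89 for Slc26a4. With at least 4 of 6 genes, Cdkn2b (-0.13) and Ttr (-1.07) turned in the cocktail library and Saa2 (-0.60) in the vehicle library. In cells with Epyc, Car12 turned in both (-0.035 and -0.38), and Scnn1b (-0.71), Vmo1 (-1.12) and Cdkn2b (-2.67) in the vehicle library. In cells without Epyc, Wfdc18 (-3.01), Cd44 (-2.68) and Gjb2 (-1.65) turned in the cocktail library and C2 (-0.35), Cd44 (-1.51), Gata3 (-4.60), Gjb2 (-3.52) and Col9a1 (-0.58) in the vehicle library. Cocktail over vehicle turned for Vmo1 with Epyc (0.53) and for Cd14 (-1.82) and Fam19a1 (0.15) without it. The cause was not tested.

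No paired analysis was possible because each group is 1 library. Depth limits Ciita, Cfb and Reg3g, which had too few UMIs to compare with the other cells with Epcam.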

Other observations

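Outside the immune genes, the cells with Epyc also stood apart from the cells without it in secreted matrix and guidance genes. Igfbp5, an insulin-like growth factor binding protein, stood at 2616 CPM in cocktail cells with Epyc and 422 CPM in those without it, and at 2233 and 325 CPM in the vehicle library. Slit2, an axon guidance ligand, stood at 221 against 7.47 CPM and 196 against 3.96 CPM, and Tgm2, a protein-crosslinking transglutaminase, at 150 against 7.47 CPM and 123 against 10.6 CPM. Clu, the chaperone clusterin, was abundant in both kinds, at 20970 against 4690 CPM and 26325 against 9156 CPM. Gata2 stood at 81.7 against 3.73 CPM and 84.4 against 13.2 CPM. On the other side, the noncoding RNA Meg3 had 0 CPM with Epyc in both libraries and 228 and 199 CPM without it, the heparan sulfate proteoglycan gene Gpc3 stood at 4.54 against 142 CPM and 0 against 292 CPM, and the haem oxygenase gene Hmox1 at 28.2 against 134 CPM and 24.6 against 157 CPM. These genes were chosen after their values were seen.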
